A study of Mus musculus with 4 samples.

Results

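Crest-derived glial genes were followed in nasal process (NP) tissue of mouse embryos, in controls and in mutants in which a constitutively activated form of the BMP type I receptor ACVR1 was switched on in neural crest cells. The set named 8 genes, Sox10, Foxd3, Sox5, Ednrb, Ngfr, Erbb3, Fabp7 and Cnp, which were taken by symbol from the 13577 genes with a symbol in the deposited expression table. Of the 8, 7 had a value and all 7 passed the filter on low values (a mean above 1 CPM, the read count of a gene scaled to a common library total). Erbb3 was not analysed here. The set was put together because Sox10 and Cnp lay lower in the mutant libraries, so the differences of its genes between the groups are given as a description. Its genes were part of the tests fitted across all genes, but the counts of calls among them are no evidence about them.

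NP tissue was taken at E11.5, mid-gestation, and there were 2 control and 2 ca-Acvr1(A11) mutant libraries. Controls carried P0-Cre without the transgene (ca-Acvr1(A11)+/+;P0-Cre), and mutants carried 1 floxed copy of it together with P0-Cre (ca-Acvr1(A11)fl/+;P0-Cre), on a mixed background. The Cre driver was therefore shared by all 4 libraries. It acts in neural crest cells, and the transgene is driven by a CAG promoter. Epithelium, brain, vessel lining and blood cells in the dissected tissue are not of crest origin. How many embryos went into a library, and whether the 2 libraries of a group came from separate litters, were not given in the sources used here, so the spread between them may be partly technical.

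The sample labels disagreed with each other. The titles name the groups as control and ca-Acvr1 mutant, and the groups here follow them, but the genotype entry of the control-titled samples reads ca-Acvr1(A11);P0-Cre and that of the mutant-titled samples reads P0-Cre alone. If the genotype entries were the correct ones, every direction given here would turn round.

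Crest-derived glia arise from migrating neural crest cells that keep SOX10, become Schwann cell precursors along growing nerves, and can also give rise to pigment cells and other crest derivatives. Neuregulin from axons acts on them through a receptor of ERBB3 and ERBB2, endothelin 3 acts through the receptor EDNRB, and neurotrophins bind p75, the product of Ngfr. FOXD3 marks early crest and represses pigment cell fate, FABP7 and CNP belong to more advanced glia, and SOX10 is required for the glial lineage. Several of these genes are also used outside it: Fabp7 and Sox5 in neural progenitors of the brain, Ednrb in progenitors of several tissues, Ngfr in mesenchyme and sensory neurons. In bulk tissue, fewer cells of a type and less RNA per cell cannot be told apart.

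The libraries held 1956831 and 2252586 reads in the controls and 2408827 and 2137027 reads in the mutants, and a single read came to 0.415 CPM in the deepest library and 0.511 CPM in the shallowest. The counts per gene could be recovered from the CPM values as whole reads, and the 95% Poisson intervals given for them cover counting error only. Replicates correlated at 0.976 in the controls and 0.978 in the mutants across the genes tested. Libraries were made from the 3′ ends of transcripts, where a transcript gives about 1 tag whatever its length, so CPM values were compared between genes without dividing by length.

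As a check of the label of the set, markers of crest-derived glia were read in the same libraries. Sox10, Foxd3 and Fabp7 were detected in all 4. Cdh19, a cadherin of Schwann cell precursors, was close to 0, with 1.53 and 0 CPM in the controls and 0.830 and 0.468 CPM in the mutants. Gfra3 and Erbb3 were not analysed here. The glial signal in this tissue was thus low, and the more abundant genes of the set, Sox5 and Fabp7, are not specific to crest-derived glia.

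Sox10 is the gene that the set turned on. It encodes an SRY-related transcription factor that crest-derived glia need to form and survive. The gene lies on the minus strand at chr15:79154908-79165240 (GRCm38, GENCODE M21), and its last exon, where 3′ tags are expected, spans chr15:79154908-79156641. The study designed a qRT-PCR primer pair for it, shown because its product places a second assay of Sox10 in the same exon as the 3′ tags, with all bases in lower case.
Sox10 forward primer: gaagccccacatcgacttcg
Sox10 reverse primer: ggcaggtattggtccagctc
The pair encloses 105 bases at chr15:79156434-79156538, which lie 1521 bases from the 3′ end of the transcript Sox10-201 and 193 bases from that of the shorter Sox10-202. No qRT-PCR value was used here.

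Sox10 was read at 9.71 and 7.99 CPM in the controls and at 2.08 and 3.28 CPM in the mutants. In reads these are 19 (95% interval 11.4 to 29.7) and 18 (10.7 to 28.4) against 5 (1.62 to 11.7) and 7 (2.81 to 14.4). Both mutant libraries lay under both controls, although the interval of each mutant library still met that of the lower control. The mean was 8.85 ± 1.22 CPM (SD, n = 2) in controls and 2.68 ± 0.848 CPM (SD, n = 2) in mutants, 3.31-fold lower in the mutants, with a fitted log2 fold change of -1.44 (SE 0.39) on the log2(CPM + 1) scale. With any 1 library left out, the fitted value stayed between -1.67 and -1.20.

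Foxd3 encodes a forkhead transcription factor of early crest and of glial precursors. It is a gene of a single exon on the plus strand, at chr4:99656299-99658622. The 4 libraries gave 3.07 and 7.99 CPM in the controls and 1.66 and 0.468 CPM in the mutants, or 6 (95% interval 2.20 to 13.1) and 18 (10.7 to 28.4) reads against 4 (1.09 to 10.2) and 1 (0.0253 to 5.57). The mutants again lay under the controls, but control 1 and mutant 1 were apart by only 2 reads. Controls averaged 5.53 ± 3.48 CPM and mutants 1.06 ± 0.843 CPM (SD, n = 2 per group), and the fitted log2 fold change was -1.61 (SE 0.50). That value moved more than any other of the set, from -2.19 without control 1 to -1.04 without control 2, and to -2.34 with a pseudocount of 0.1 in place of 1 CPM.

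Sox5 encodes a transcription factor of the SOXD group, which has no activation domain of its own and works beside SOX9 and SOX10. The gene spans chr6:143828425-144781977 on the minus strand. It was the most abundant of the set, at 135 and 128 CPM in the controls and 135 and 127 CPM in the mutants. The groups overlapped, and their means of 132 ± 4.68 and 131 ± 5.73 CPM (SD, n = 2 per group) were closer than the replicates of either group. The fitted log2 fold change was -0.01 (SE 0.15). So of the 3 transcription factors, Sox10 and Foxd3 lay lower in the mutants at low counts, and Sox5 did not at high counts.

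Among the receptors, Ednrb was the one gene of the set that lay higher in both mutants. It encodes the endothelin receptor that migrating crest cells need to become enteric neurons and pigment cells, at chr14:103814625-103844402 on the minus strand. Its levels were 14.3 and 15.5 CPM in the controls and 19.1 and 27.1 CPM in the mutants, from 28 and 35 against 46 and 58 reads. The groups did not overlap, with averages of 14.9 ± 0.869 in controls and 23.1 ± 5.69 CPM in mutants (SD, n = 2 per group), a ratio of 1.55 and a log2 fold change of 0.58 (SE 0.26), which was 0.34 without mutant 2 and 0.82 without mutant 1.

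Ngfr encodes p75, a receptor of the neurotrophins that is widely used to sort crest cells, at chr11:95568818-95587735 on the minus strand. It was read at 16.9 and 11.99 CPM in the controls and 12.5 and 11.2 CPM in the mutants. Mutant 1 lay above control 2, so the groups overlapped. Controls averaged 14.4 ± 3.45 CPM and mutants 11.8 ± 0.865 CPM (SD, n = 2 per group), and the log2 fold change of -0.25 (SE 0.30) was smaller than its error and came to -0.02 without control 1.

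Fabp7, a lipid-binding protein of glial precursors and of radial glia, lies at chr10:57784881-57788450 on the plus strand. Its levels were 69.0 and 113 CPM in the controls and 83.4 and 122 CPM in the mutants. The replicates of each group were further apart than the group means of 90.9 ± 31.0 and 103 ± 27.0 CPM (SD, n = 2 per group). The log2 fold change of 0.19 (SE 0.20) changed sign with the library left out, to -0.16 without control 1 and -0.08 without mutant 2.

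Cnp encodes a phosphodiesterase of myelin-forming glia that is also present at low level in their precursors. It was read at 11.2 and 11.54 CPM in the controls and 5.40 and 6.55 CPM in the mutants, from 22 and 26 against 13 and 14 reads. Both mutants lay under both controls, and the controls were close to each other. Controls averaged 11.4 ± 0.212 CPM and mutants 5.97 ± 0.816 CPM (SD, n = 2 per group), 1.91-fold lower in the mutants, with a log2 fold change of -0.83 (SE 0.34) that stayed between -0.95 and -0.71 with any 1 library left out. The gene lies on the plus strand at chr11:100574904-100591729, and its last exon, chr11:100591267-100591729, overlaps Dnajc7 on the opposite strand. Whether reads were assigned by strand was not given in the sources used here, so reads of the pair may not be told apart.

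**Figure D1:**
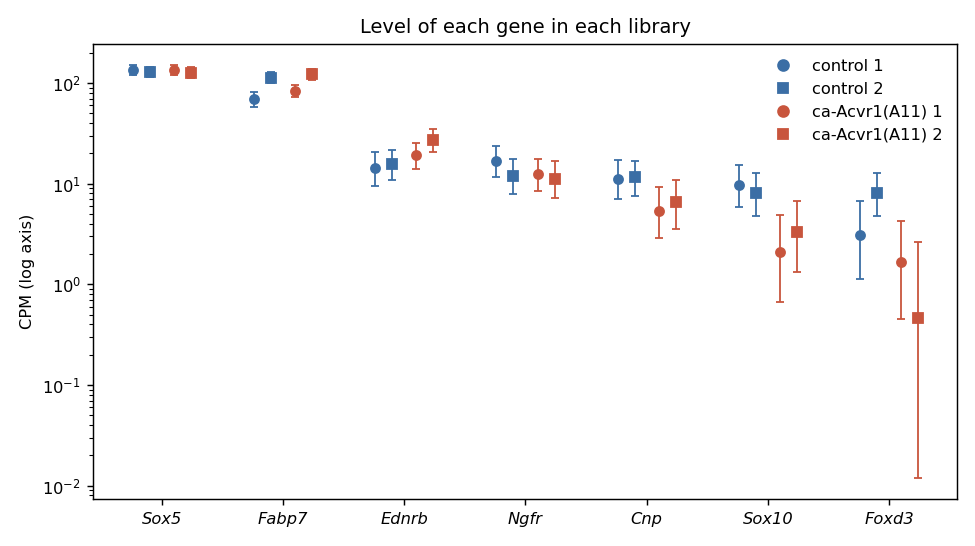
CPM (log axis) of the 7 crest-derived glial genes in each of the 4 libraries. Points are single libraries, circles for replicate 1 and squares for replicate 2, and bars are 95% Poisson intervals of the reads behind each value. Sox10, Foxd3 and Cnp lie lower and Ednrb higher in both mutants, whereas the points of Sox5, Fabp7 and Ngfr overlap between the groups, and the bars widen as the level falls.

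The order of the mean levels over the 4 libraries was Sox5, Fabp7, Ednrb, Ngfr, Cnp, Sox10 and Foxd3. Sox5 and Fabp7 did not overlap in any pair of libraries, and neither did Fabp7 and Ednrb. From Ednrb downward, each gene overlapped with the next in its range over libraries. Against all 12462 genes tested, whose median level was 22.7 CPM, Sox5 stood at the 87.1 percentile and Fabp7 at 81.9. Ednrb at 46.1, Ngfr at 38.3 and Cnp at 30.5 stood below the middle, and Sox10 at 23.8 and Foxd3 at 15.4 were lowest.

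The genes of the set did not differ in one direction. Of the 7, 5 had a negative and 2 a positive log2 fold change, and the median was -0.25, beside a median of 0.03 over all genes tested, of which 5710 lay lower and 6752 higher. Lower in both mutants than in both controls were 3 of the 7, where 16.8% of all genes tested were, and higher in both mutants was 1 of the 7, where 21.9% were. The summed level of the 7 was 259 and 296 CPM in the controls and 259 and 297 CPM in the mutants, because Sox5 and Fabp7 made up most of it. Since the set was chosen on this contrast, nothing is read from these counts.

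In limma fitted across all genes on log2(CPM + 1), with Benjamini-Hochberg adjustment and two-sided, a gene was called at an adjusted p under 0.05. Of the 12462 genes tested, 0.899% were called, 0.594% lower and 0.305% higher in the mutants. None of the 7 was called (0 of 7), 4 had an unadjusted p under 0.05, as had 9.55% of all genes tested, and 0 were called by edgeR and by DESeq2 on the recovered reads, which called 1.31% and 0.365% of their genes. Foxd3 was too low to enter the edgeR fit. Without control 1, the log2 fold change of Foxd3 was -2.19. With a replicate block, Sox10 and Foxd3 were called, but that fit called 229 of all genes tested, against 112 in the main fit. Nothing shows that the replicate numbers pair the samples. As the rule used this contrast, these counts describe where the chosen genes stood and are no evidence about them.

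**Figure D2:**
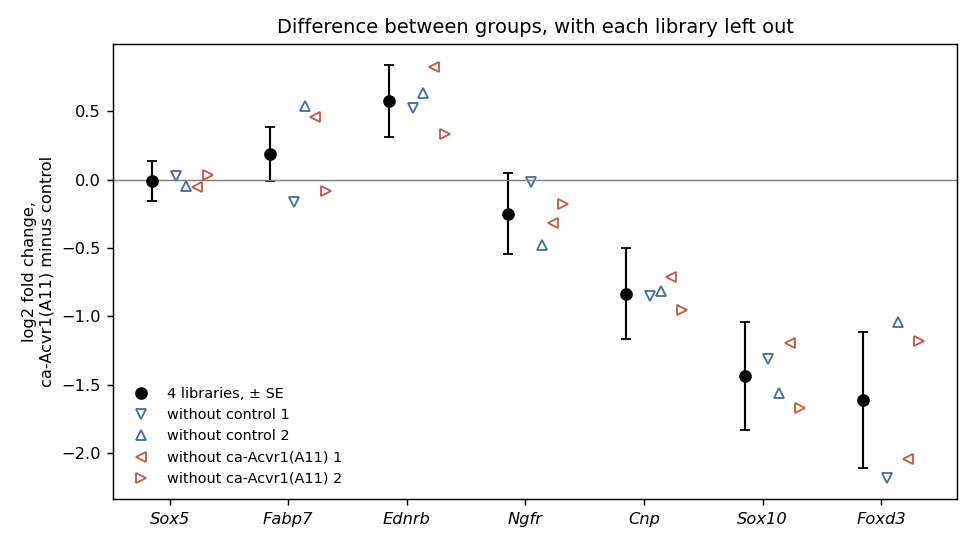
Log2 fold change of the 7 genes, mutant minus control, on the log2(CPM + 1) scale. Filled circles with bars are the limma estimate from 4 libraries ± SE, and open triangles are the estimates with 1 library left out. Sox10, Foxd3, Cnp and Ngfr stay below 0 and Ednrb above 0 in all these fits, whereas Fabp7 and Sox5 change sign. Ngfr, whose groups overlap, comes to -0.02 without control 1.

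The HMG box proteins of the SOX family, SOX10 among them, bind a short core that is often written ACAAAG or ACAATG. These letters were searched on both strands in RefSeq windows of 300 bases around gene starts (250 before to 50 after, GRCm38.p6), in which the 2 hexamers differ at 1 base and cannot match at the same place. Windows of 6 of the 8 genes were in the table, and Sox10 and Erbb3 were not among them. Of all 32851 windows, 28.6% held a match, so that a match by itself is common. Cnp and Sox5 had 1 match each, and Foxd3, Fabp7, Ngfr and Ednrb had 0. The 250 bases before the start are shown for Cnp and Foxd3, which lay lower in the mutants together with Sox10, and for Sox5, which did not, with the match in capitals.
Cnp, chr11:100574689-100574938, plus strand: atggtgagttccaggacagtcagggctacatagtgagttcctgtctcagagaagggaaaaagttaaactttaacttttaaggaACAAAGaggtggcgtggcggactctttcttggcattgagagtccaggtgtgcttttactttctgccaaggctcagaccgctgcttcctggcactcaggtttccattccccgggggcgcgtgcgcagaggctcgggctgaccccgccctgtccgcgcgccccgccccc
Foxd3, chr4:99656049-99656298, plus strand: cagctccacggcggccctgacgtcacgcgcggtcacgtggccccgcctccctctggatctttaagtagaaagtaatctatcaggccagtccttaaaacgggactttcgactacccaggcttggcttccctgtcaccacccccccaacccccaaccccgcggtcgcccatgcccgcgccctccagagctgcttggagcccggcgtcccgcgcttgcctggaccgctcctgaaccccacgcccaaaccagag
Sox5, chr6:143947107-143947356, minus strand: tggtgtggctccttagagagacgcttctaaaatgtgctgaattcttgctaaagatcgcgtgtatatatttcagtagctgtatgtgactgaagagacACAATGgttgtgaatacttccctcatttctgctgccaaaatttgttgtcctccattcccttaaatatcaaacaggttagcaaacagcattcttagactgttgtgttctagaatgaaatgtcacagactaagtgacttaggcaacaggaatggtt
The match of Cnp begins 167 bases before the RefSeq start and that of Sox5 begins 154 bases before it. The start used for Sox5 is one of several, as the gene has 14 annotated transcripts. A match is a string of letters and not a binding site, and the lack of one says only that these letters are not in this window.

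The partners of these genes in their pathways were examined next, from lists put together by role. Of the neuregulin and ERBB genes, 12 of 15 were tested and 0 were called in limma (0 at an unadjusted p under 0.05, and 0 by edgeR and DESeq2). Their median log2 fold change was -0.15, with 8 lower and 4 higher. The most abundant were Grb2, the adaptor that links receptors to RAS, with a log2 fold change of 0.05 (SE 0.14), Adam17, a protease that releases ligands of the family, with 0.08 (SE 0.15), and Bace1, which cleaves neuregulin 1, with -0.02 (SE 0.20). Chosen after their values were seen, for their role beside Erbb3, were the ligand and the co-receptor. Nrg1 was read at 1.53 and 1.33 CPM in the controls and 0.830 and 1.40 CPM in the mutants, at most 3 reads in a library. Erbb2 was read at 15.3 and 17.8 CPM in the controls and 10.8 and 18.2 CPM in the mutants, with overlapping groups and a log2 fold change of -0.22 (SE 0.29).

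Of the endothelin genes, 10 of 11 were tested and 0 were called in limma (2 at an unadjusted p under 0.05, 0 by edgeR and DESeq2), with a median of -0.01 and 5 genes in each direction. The most abundant were the G protein subunits Gnaq, with a log2 fold change of 0.03 (SE 0.14), and Gna11, with -0.06 (SE 0.17), and the converting enzyme Ece1, with -0.04 (SE 0.21). The 2 genes at an unadjusted p under 0.05 were named after their values were seen. Edn3, the ligand of EDNRB, stood at 10.2 and 9.32 CPM in the controls and 5.81 and 3.28 CPM in the mutants, with a log2 fold change of -0.996 (SE 0.37, limma adjusted p = 0.321). Ednra, the other endothelin receptor and one of facial mesenchyme, stood at 22.5 and 37.3 CPM in the controls and 17.9 and 13.1 CPM in the mutants, with -0.88 (SE 0.27, limma adjusted p = 0.169). Both mutants lay under both controls for the ligand and for this receptor, the opposite side from Ednrb, but neither passed the threshold. A single endothelin gene was called without control 1, and 1 with the replicate block.

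Of the neurotrophin and p75 genes, 13 of 16 were tested and 0 were called in limma (3 at an unadjusted p under 0.05, 0 by edgeR and DESeq2), with a median of -0.08. The most abundant was Maged1, which binds the intracellular part of p75, at 348 and 404 CPM in the controls and 306 and 283 CPM in the mutants, with a log2 fold change of -0.35 (SE 0.14, limma adjusted p = 0.379). Sort1, the sortilin that joins p75 in binding pro-neurotrophins, lay at 57.2 and 43.1 CPM in the controls and 65.2 and 70.2 CPM in the mutants, with 0.44 (SE 0.18, limma adjusted p = 0.424). Arhgdia, an inhibitor of small GTPases, differed by -0.10 (SE 0.16). The 3 partners thus had values on either side of 0, and none passed the threshold.

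The relatives of Sox10 and Sox5 gave 4 genes tested and 0 called in limma (1 at an unadjusted p under 0.05, 0 by edgeR and DESeq2). Sox9, the SOXE factor of early crest and cartilage, was by far more abundant than Sox10, at 673 and 622 CPM in the controls and 526 and 530 CPM in the mutants. Its log2 fold change was -0.29 (SE 0.13, limma adjusted p = 0.476). Sox8, the third SOXE factor, named after its values were seen, was read at 13.3 and 8.43 CPM in the controls and 9.96 and 5.15 CPM in the mutants, with overlapping groups. The SOXD relatives of Sox5 had log2 fold changes of 0.18 (SE 0.18) for Sox6, whose groups overlapped, and 0.37 (SE 0.25) for Sox13, and neither was called.

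Other genes of crest-derived glia and Schwann cell precursors did not share the low mutant values of Sox10. Of 25, 16 were tested and 0 were called in limma, 6 had an unadjusted p under 0.05, and 0 were called by edgeR and DESeq2. Their median log2 fold change was 0.08, with 6 lower and 10 higher. Sox2, a factor of immature Schwann cells and also of brain progenitors and placodes, was the most abundant at 455 and 429 CPM in the controls and 616 and 633 CPM in the mutants, with 0.50 (SE 0.13, limma adjusted p = 0.0803). Serpine2, a protease inhibitor made by glia, differed by 0.53 (SE 0.17, limma adjusted p = 0.199), and Metrn, a factor secreted by glial progenitors, by 0.19 (SE 0.16). The count of calls was 2 without control 1, 1 without control 2 and 1 with the replicate block. Of the lists of other crest derivatives, pigment cells had 5 of 10 genes tested and 0 called, with 0 at an unadjusted p under 0.05. Kit, Mitf and Dct, which mark pigment cell precursors, overlapped between the groups, at 13.8 to 19.4, 6.66 to 13.8 and 2.91 to 8.42 CPM over the 4 libraries. Crest and placode neurons had 14 of 19 tested and 0 called, with 4 at an unadjusted p under 0.05 and a median of 0.18. Their pan-neuronal genes Tubb3, Elavl4 and Stmn2 differed by 0.16 (SE 0.15), 0.15 (SE 0.14) and 0.39 (SE 0.16). edgeR and DESeq2 called 0 genes of either list. Without control 1, 2 neuronal genes were called.

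Some marker lists of the other cells in the dissected tissue moved with the groups. Of 20 facial mesenchyme markers, 12 were called lower and 0 higher, and 8 were not called. By sign 17 were lower and 3 higher, with a median log2 fold change of -0.84. Among the 12 were the transcription factors Prrx1, Prrx2, Twist1, Twist2, Alx1, Alx4, Six2 and Pax3 and the collagens Col1a1, Col1a2 and Col3a1. Prrx1 was read at 224 and 241 CPM in the controls and 94.7 and 108 CPM in the mutants, with -1.19 (SE 0.15, limma adjusted p = 1.5e-05). Summed over the 20, the level was 2576 and 3088 CPM in the controls and 1558 and 1618 CPM in the mutants, a ratio of 0.561. Pax3 and Twist1 are also genes of migrating crest. DESeq2 called 7 of the 20, 8 were called without control 2 and 14 without control 1.

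Of the epithelial, forebrain and macrophage markers, 2 of 12, 1 of 12 and 1 of 8 were called higher and 0 lower. Epcam, with a log2 fold change of 0.72 (SE 0.16, limma adjusted p = 0.0264), and Cdh1, with 0.78 (SE 0.17, limma adjusted p = 0.0145), were the epithelial genes called, 10 of the 12 had a positive and 2 a negative log2 fold change, and the summed level of the 12 was 254 to 269 CPM in the controls and 384 to 420 CPM in the mutants. Of the markers of forebrain progenitors and oligodendrocyte precursors, 12 of 12 had a positive log2 fold change with a median of 0.39, and Otx2 was called, with 0.70 (SE 0.15, limma adjusted p = 0.0164). Their sum was 1980 and 1636 CPM in the controls and 2530 and 2301 CPM in the mutants. Of 8 macrophage genes tested, Cx3cr1 was called, with 1.04 (SE 0.22, limma adjusted p = 0.0143), and the sum was 47.9 to 50.1 CPM in the controls and 76.8 to 110 CPM in the mutants. DESeq2 called 0 genes of these 3 lists. Without mutant 1, 0 epithelial genes were called, 1 was called without control 2 or without mutant 2 and 3 without control 1. Otx2 was not called without control 2 or without mutant 1, and the forebrain calls came to 7 without control 1 and to 3 with the replicate block. No macrophage gene was called without mutant 2, and 2 were called without control 2. Endothelial and erythroid markers had 0 called of 9 and of 6 tested in limma, edgeR and DESeq2 (0 at an unadjusted p under 0.05 in either), with summed levels that overlapped between the groups, and 1 erythroid gene was called without control 1. The part of any of these cell types in the values of the glial genes was not tested.

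**Figure D3:**
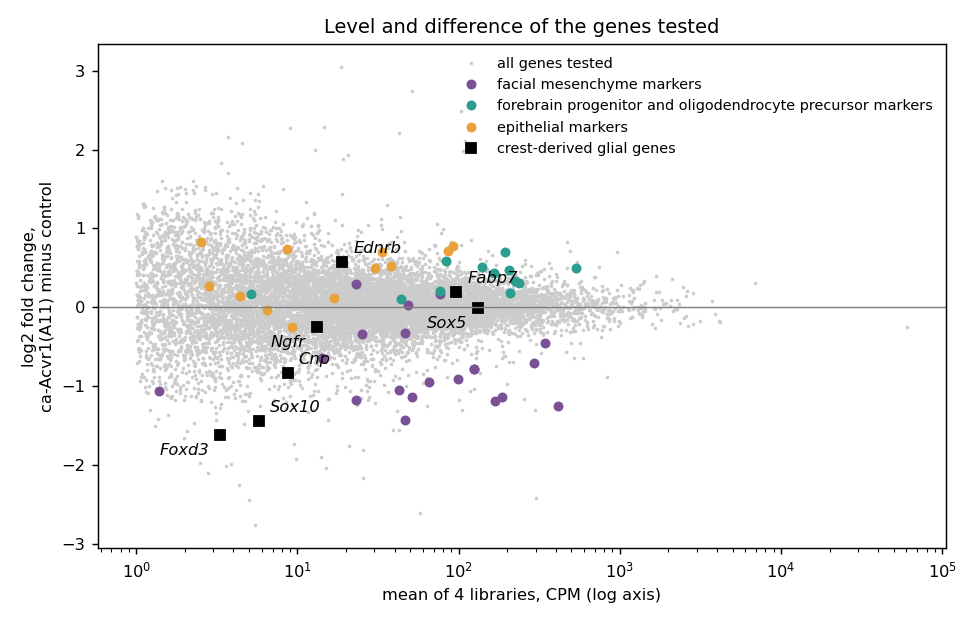
Mean level over the 4 libraries (CPM, log axis) against the log2 fold change, mutant minus control, of the 12462 genes tested. Squares are the 7 crest-derived glial genes and coloured circles are 3 marker lists. Sox10 and Foxd3 lie at the low end of the level axis, where the grey cloud of all genes is widest, and 17 of the 20 facial mesenchyme markers lie below 0, most of them at higher levels.

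**Figure D4:**
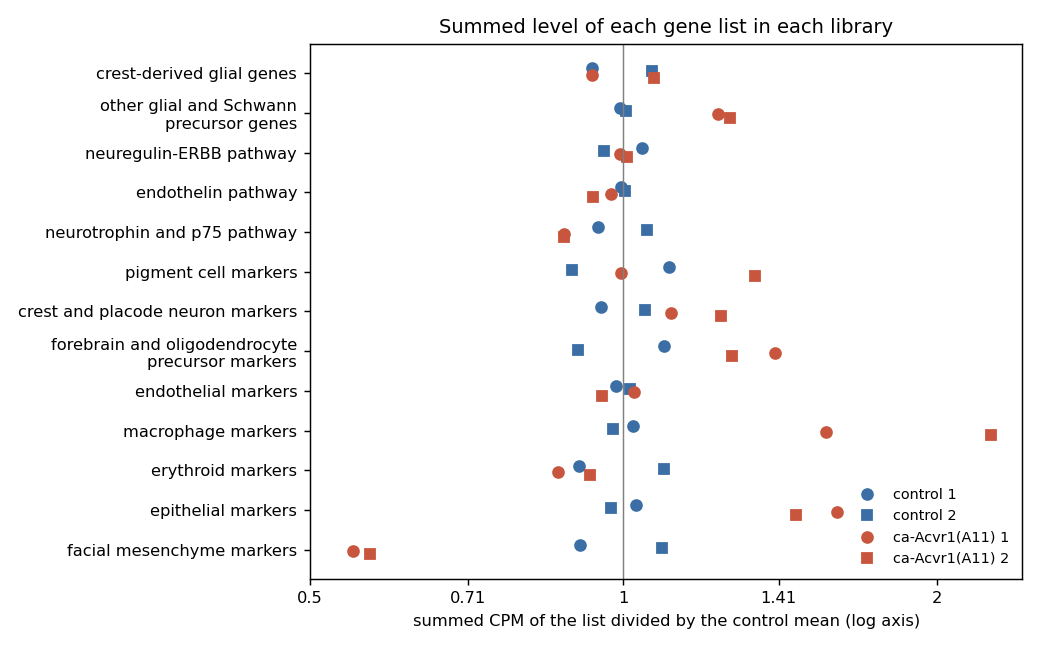
Summed CPM of each gene list in each library divided by its control mean (log axis). Points are single libraries, circles for replicate 1 and squares for replicate 2. The facial mesenchyme sum lies lower and the forebrain, epithelial and macrophage sums lie higher in both mutants, and the sum of the crest-derived glial genes overlaps between the groups.

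Because some of these lists moved, the glial genes were also set against the summed markers of mesenchyme and of forebrain, per 1000 CPM of the markers in the same library. Per 1000 CPM of facial mesenchyme markers, Sox10 was at 3.77 and 2.59 in the controls and 1.33 and 2.02 in the mutants, so that both mutants still lay lower, at a ratio of 0.528. Cnp was at 4.36 and 3.74 in the controls and 3.46 and 4.05 in the mutants, and its groups overlapped at a ratio of 0.927. Foxd3 was at 1.19 and 2.59 in the controls and 1.07 and 0.289 in the mutants, a ratio of 0.359, with control 1 and mutant 1 close to each other on 6 and 4 reads. On this scale the other 4 lay higher in both mutants, Ednrb at 2.74, Fabp7 at 2.03, Sox5 at 1.76 and Ngfr at 1.43 times the control mean. The mesenchyme sum was itself lower in both mutants, at a ratio of 0.561, which raises the ratio of every gene set against it. In CPM, the ratio of Sox5 was 0.994. The ratio of Cnp was thus near that of the summed mesenchyme markers, and the ratios of Sox10 and Foxd3 were below it.

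Per 1000 CPM of the forebrain and oligodendrocyte precursor markers, Sox10 was at 4.90 and 4.88 in the controls and 0.820 and 1.42 in the mutants, a ratio of 0.229. Foxd3 at 0.134, Cnp at 0.391, Ngfr at 0.619 and Sox5 at 0.740 of the control mean also lay lower in both mutants. Fabp7 at 0.827 and Ednrb at 1.16 overlapped. Of the 7 genes, Sox10 and Foxd3 lay lower in both mutants on all 3 scales, and Cnp lay lower and Ednrb higher in the mean on all 3 but overlapped between the groups on 1 of them. The side on which the means of Fabp7, Sox5 and Ngfr lay depended on what they were set against. Sox10 and Cnp were chosen for lying lower in these mutants, and all 3 scales use the same reads of each gene. The forebrain sum was itself higher in both mutants, which lowers the ratio of every gene set against it. Agreement between the scales is therefore a description and no evidence about these genes.

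The genes whose levels over the 4 libraries were most like those of Sox10 were found by the distance between log2(CPM + 1) values centred on their mean, among 9767 genes with a mean above 5 CPM. They were Bnc2, a zinc finger protein of mesenchyme, at a distance of 0.319, Enpp2, the enzyme autotaxin, at 0.344, Tgfb3, a growth factor of palate fusion, at 0.367, Aldoa, an enzyme of glycolysis, at 0.383, and Prrx1 at 0.404. Bnc2 was read at 22.5 and 23.5 CPM in the controls and 7.47 and 8.42 CPM in the mutants, and Tgfb3 at 8.18 and 6.22 against 2.08 and 3.74 CPM. For Aldoa, the values of both mutants, 172 and 168 CPM, were not whole reads, whereas those of both controls were. Its likeness to Sox10 was found on these deposited values and rests on them. With 4 libraries the measure mostly finds genes that differ between the groups by a like amount, and Prrx1 is one of the facial mesenchyme markers.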

How the data were processed

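RNA was isolated with TRIzol, QuantSeq 3′ libraries were sequenced on an Illumina HiSeq, and STAR, featureCounts 1.6.4, DESeq2 and mm10 are named in the submitters' processing notes. The authors deposited 1 table of CPM values per gene, with 4 columns, and of its lines 33470 name no gene and stayed out of the tests. Listed genes held 97.2% to 97.3% of each library. The deposited CPM values were whole multiples of 1 read for 99.9% of values (within 0.02 reads), and 43 values in 22 genes were not. None of the latter was a gene of the set or of a list.

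The main test was limma 3.58.1 (R 4.3.3) on log2(CPM + 1) with a mean-variance trend, without covariates. Genes entered it when their 4 values averaged over 1 CPM, and p-values were adjusted by Benjamini-Hochberg. Fold changes on that scale understate the change of low genes. On recovered reads, edgeR 4.0.16 and DESeq2 1.42.0 were alternatives, beside another pseudocount, other filters, TMM and RLE scaling, each library left out and a replicate block. Scripts were tested on simulated data. The genes of the set and the 13 lists (169 genes, 3 of them in 2 lists: Sox2, Sox8 and Gap43) were chosen by role with earlier results of these data known. From each list, every called gene and the 3 with the highest mean CPM were named, and any other gene is said to be named after its values were seen. A few list genes are counted but not reported here by name. Gene positions are from GENCODE M21 (GRCm38) and promoters from RefSeq (GRCm38.p6).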

Additional observations from a re-analysis of the deposited data

How the results depend on the processing

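Over 13 alternatives, no called result changed direction. The count over all genes was 112, against 39 with DESeq2, 229 with the replicate block and 94 to 462 with 1 library left out, the highest without control 1. The count in the lists was 16, against 7 with DESeq2 and 10 (without mutant 1) to 29 (without control 1) with 1 library left out. The median log2 fold change of the 7 glial genes was -0.25 and ranged from -0.48 (without control 2) to -0.16 (without control 1) with 1 library left out, and came to -0.13 with a mean above 5 CPM and -0.16 with edgeR, both over 6 genes, as Foxd3 was too low to enter. The 7 gave 0 calls, except 1 (Foxd3) without control 1 and 2 (Sox10 and Foxd3) with the replicate block. The labels share only replicate numbers, the deviations of same-numbered samples correlated at 0.0671, and 2 pairs cannot show pairing. Across all alternatives the log2 fold change was -1.76 to -1.20 for Sox10, -2.39 to -1.04 for Foxd3 and -0.96 to -0.71 for Cnp. The cause of these shifts was not tested. With 5 and 7 mutant reads for Sox10 and 4 and 1 for Foxd3, depth limits both.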
